A study of Homo sapiens with 4 samples.

Results

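The actin cytoskeleton and its SRF-regulated genes were followed through 10 genes, chosen by name: ACTB, ACTG1, TAGLN, TAGLN2, MYL9, TPM1, TPM2, ACTN1, CNN2 and VCL. The choice was made with earlier results of these data known. They are 10 of the 58735 genes in the deposited expression table, and 10 of 10 passed the filter for comparison, a mean FPKM over the 4 libraries of 1 or more. An FPKM value divides the fragments counted on a gene by the gene's length in kilobases and by the library's size as the authors set it.

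RNA-seq was performed on total RNA of HCT116 and LOVO, each as adherent culture (1 library) and as spheroids (1 library). Both are described as wild-type lines derived from human colorectal cancers, and marker levels of the LOVO libraries are given below. The spheroids served the study as a model of cancer stem-like cells. Adherent cells grew in RPMI-1640 with fetal bovine serum and received no treatment. According to the study's methods, spheroids grew in ultralow attachment dishes, in serum-free DMEM/F12 with B27, N2, bFGF and EGF. Its results section states that oxaliplatin, a platinum drug, was present. No drug is named beside the 1 mg/ml in the labels, and since the study's results section states the dose in μg/ml, it is not settled here. Growth form, medium and drug therefore changed together and cannot be told apart. With 1 library per condition a difference within a line has no replicate check, and the intervals given below are 95% exact (Clopper-Pearson) intervals that cover counting error only. As the RNA was taken in bulk, fewer cells of a kind and less RNA per cell cannot be told apart.

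Actin monomers assemble into filaments that carry tension between neighbouring cells and to the matrix, and the spread, stress-fibre-rich form of a cell on plastic depends on them. Tropomyosins, calponins and transgelins line the filaments, alpha-actinin crosslinks them, vinculin ties them to adhesion sites, and myosin II, with its regulatory light chain, pulls on them. Serum response factor (SRF) activates many of these genes through a DNA element called the CArG box, and its MRTF coactivators are held inactive by free actin monomers, so that filament assembly and transcription of the filament's own parts are coupled.

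The libraries held between 15483569 and 20429147 reads on genes, and HCT116 spheroids had the fewest. Reads of mitochondrially encoded genes made up 6.77% of the total in adherent HCT116 and 11.1% in HCT116 spheroids, and 3.65% and 3.97% of it in the LOVO libraries. Among 8 markers of colorectal epithelium, EPCAM, an epithelial adhesion molecule, had an FPKM of 85.6 and 79.3 in the HCT116 libraries but of 0.9297 and 1.499 in those labelled LOVO. CDH1, the E-cadherin gene, was at 31.1 in both HCT116 libraries and at 0.12 and 0.01 in the LOVO libraries, and CDX2, an intestinal transcription factor, was listed at 0 in both of the latter. Summed over the 8 markers, the FPKM was 1754 and 1288 in HCT116 and 327 and 187 in LOVO, where most of it came from the keratins KRT8 and KRT18. Among 10 markers of smooth muscle and fibroblasts, the sums were 9.98 and 25.8 in HCT116 and 55.4 and 74.9 in LOVO. LUM, a proteoglycan gene of fibroblasts, made up most of the LOVO sums, at 31.4 and 50.4, whereas the smooth muscle marker MYH11 stayed at 0.25 or below in the 4 libraries. Among 5 markers of endothelium and leukocytes, PECAM1 alone was above 1, at 6.35 in LOVO spheroids. DCN, another marker of the smooth muscle and fibroblast list, was at 10.4 and 9.97 in LOVO and at 0 in HCT116. The libraries labelled LOVO thus held epithelial keratins and fibroblast markers, with EPCAM, CDH1 and CDX2 near or at 0. Of the 8 epithelial markers, 5 in adherent LOVO and 4 in LOVO spheroids were under 1, against 2 and 1 in HCT116. Whether these libraries come from colorectal epithelial cells was not tested. They are called LOVO here after that label, each result is given for HCT116 alone as well, and the part of these marker levels in the results was not tested.

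Within HCT116, the spheroid library was lower than the adherent one for 9 of the 10 genes, and the 2 cytoplasmic actins stood far apart from the other 8. ACTG1 was 3.68-fold and ACTB 3.38-fold lower, while the next, CNN2, was 1.79-fold lower. In LOVO the order was different, with TPM1 2.83-fold lower, ACTB 1.48-fold lower and ACTN1 1.66-fold higher in spheroids. TAGLN was the only gene of the 10 with a higher value in the spheroids of both lines.

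**Figure D1:**
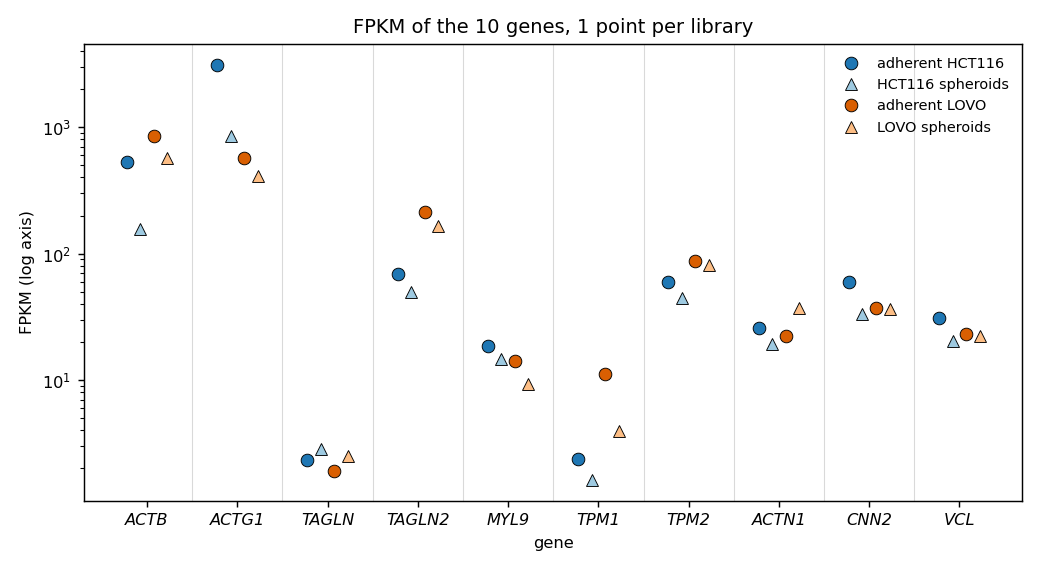
FPKM of each of the 10 genes (log axis) in the 4 libraries, 1 point per library, with circles for adherent cells and triangles for spheroids. ACTG1 reached 3116 in adherent HCT116 and 411 to 846 in the other libraries, and TAGLN stayed between 1.92 and 2.87.

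The CArG box, the sequence that SRF binds, begins with CC, ends with GG and has a run of A and T between. It was searched in the RefSeq promoter windows of GRCh38.p14, 250 bases before to 50 bases after a start, where 7 of the 10 genes had an entry (ACTB, TAGLN and MYL9 did not). A CArG box reads as the same pattern on both strands, so that a search of the printed strand covers both. It was present in windows of ACTG1, CNN2 and ACTN1, that is in 3 of 13 windows (23.1%), against 454 of 35116 windows of all genes (1.29%). As the 10 genes were chosen as actin and SRF-regulated genes, these shares are no test of the set. Several windows can also belong to 1 gene. In ACTG1 it lies 94 to 85 bases before the start, in CNN2 89 to 80 and in 1 of 4 ACTN1 windows 171 to 162. For TAGLN2, TPM1, TPM2 and VCL these windows held no match. The bases before the start are printed 5′ to 3′ on the gene's strand, whole for ACTG1 and CNN2 and around the box for ACTN1 and SRF, with the box in capitals, to show the element in its setting in each gene.
ACTG1, minus strand, chr17:81512800-81513049: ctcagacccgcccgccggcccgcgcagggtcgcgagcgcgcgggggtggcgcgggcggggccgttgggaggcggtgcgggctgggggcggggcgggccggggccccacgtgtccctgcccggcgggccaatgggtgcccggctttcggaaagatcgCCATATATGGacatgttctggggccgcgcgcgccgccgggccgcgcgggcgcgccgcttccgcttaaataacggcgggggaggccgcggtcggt
CNN2, plus strand, chr19:1026358-1026607: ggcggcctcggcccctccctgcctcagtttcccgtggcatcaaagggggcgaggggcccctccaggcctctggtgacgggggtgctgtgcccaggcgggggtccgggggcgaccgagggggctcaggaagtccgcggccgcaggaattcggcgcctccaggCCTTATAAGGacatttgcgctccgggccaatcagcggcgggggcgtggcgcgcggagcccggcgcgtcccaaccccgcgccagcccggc
ACTN1, minus strand, chr14:68977688-68977777: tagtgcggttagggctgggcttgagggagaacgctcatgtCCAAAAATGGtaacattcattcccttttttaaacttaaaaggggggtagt
SRF, plus strand, chr6:43171199-43171268: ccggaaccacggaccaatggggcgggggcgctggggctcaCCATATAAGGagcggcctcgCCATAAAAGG

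ACTB encodes beta-actin and is found on chromosome 7 (GRCh38, minus strand, 5527147 to 5563784). ACTG1 encodes gamma-actin and is found on chromosome 17 (minus strand, 81509971 to 81523847). Together they are the actins of non-muscle cells. The FPKM of ACTB was 531 in adherent HCT116, 157 in HCT116 spheroids, 844 in adherent LOVO and 571 in LOVO spheroids. HCT116 spheroids were thus the low library, and the other 3 lay within a narrower band. The level of ACTG1 was 3116, 846, 567 and 411 in the same order. Adherent HCT116 cells held by far the highest value, ranking 9 among all genes of that library, and both LOVO libraries were below both HCT116 libraries.

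On the log2(FPKM + 1) scale, the HCT116 fold change, taken as spheroids minus adherent cells, was -1.75 for ACTB and -1.88 for ACTG1. Only 121 of the 14429 genes compared had a more negative fold change than ACTB in that line, and only 96 had a more negative one than ACTG1. In LOVO the fold change was -0.56 for ACTB, with 3213 genes more negative, and -0.46 for ACTG1, with 3884 more negative. Without a pseudocount the counting interval of the log2 ratio of ACTB was -1.79 to -1.72 in HCT116 and -0.58 to -0.54 in LOVO. That of ACTG1 was -1.90 to -1.87 and -0.49 to -0.44. These intervals compare the libraries and not the conditions.

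The balance between the 2 actins differed between the lines and hardly between growth forms. The ratio of ACTG1 to ACTB in FPKM was 5.87 in adherent HCT116 (interval 5.80 to 5.93) and 5.38 in HCT116 spheroids (5.26 to 5.51). In LOVO it was 0.672 (0.663 to 0.682) in adherent cells and 0.719 (0.708 to 0.730) in spheroids. ACTG1 was therefore the main actin in HCT116, with 85.4% and 84.2% of the summed FPKM of 6 actin genes, and ACTB the main actin in LOVO, with 59.7% and 58.0%. Reads on the pair made up 1.12% of all reads on genes in adherent HCT116, 0.335% in HCT116 spheroids, 0.423% in adherent LOVO and 0.341% in LOVO spheroids. Adherent HCT116 cells stood out, and the remaining 3 libraries were close to each other.

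Both actin genes have processed copies elsewhere in the genome that could take some of their reads. Of the stretches of 50 bases in ACTB transcripts, 4.84% also occur in another annotated gene, and for ACTG1 the share is 2.30%. ACTB and ACTG1 themselves share 0.252% and 0.292% of their stretches with each other. Reads on the 10 annotated ACTB pseudogenes numbered 9 to 61 per library and those on the 20 ACTG1 pseudogenes 49 to 103, at most 0.417% of the reads of the parent gene. The other 4 actins, those of muscle, were near 0 in the table. ACTA2, the smooth muscle alpha-actin, was the only muscle actin to pass the mean of 1, at 1.15, 1.08, 1.199 and 1.34 in the order above, with log2 fold changes of -0.05 and 0.09 whose counting intervals include 0. The first of these changed sign with the scaling between libraries.

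**Figure D2:**
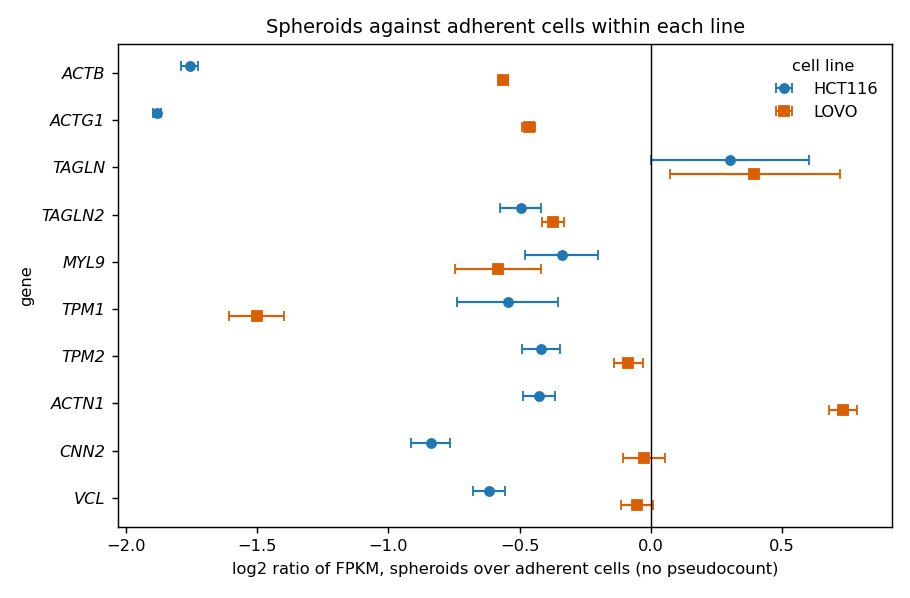
Log2 ratio of FPKM, spheroids over adherent cells without a pseudocount, for each gene in HCT116 (circles) and LOVO (squares), with bars for the 95% exact counting interval. The actins are at the far left in HCT116, TPM1 in LOVO, and the LOVO intervals of CNN2 and VCL include 0; with other scalings CNN2, VCL and TPM2 were higher in LOVO spheroids.

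Among the calponin-like genes, TAGLN2 and CNN2 were well expressed, and TAGLN was scarce. TAGLN encodes transgelin, also called SM22, a textbook smooth muscle target of SRF, and lies on the plus strand of chromosome 11 from 117199321 to 117204782. Its FPKM was 2.33 in adherent HCT116, 2.87 in HCT116 spheroids, 1.92 in adherent LOVO and 2.52 in LOVO spheroids, from 186, 189, 135 and 199 reads. Ordered by level, no library differed from its neighbour beyond the counting interval. The log2 fold change was 0.22 in HCT116 and 0.27 in LOVO, and the intervals of the log2 ratio, from 0.0020 to 0.60 and from 0.07 to 0.72, barely cleared 0. Of its 3917 exonic bases, 446 overlap an exon of a gene on the opposite strand, and whether the counting used strand is not given in the sources used here.

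TAGLN2 encodes the transgelin of non-muscle cells and lies on the minus strand of chromosome 1 from 159918107 to 159925732. It had an FPKM of 69.5 in adherent HCT116, 49.2 in HCT116 spheroids, 213 in adherent LOVO and 165 in LOVO spheroids. Both LOVO libraries were above both HCT116 libraries, and within each line spheroids were lower. The log2 fold change was -0.49 in HCT116 and -0.37 in LOVO. A processed copy, TAGLN2P1, shares 5.84% of its 50-base stretches.

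CNN2 encodes calponin 2, the non-muscle calponin that binds actin filaments, and lies on the plus strand of chromosome 19 from 1026581 to 1039068. Its level was 59.7 in adherent HCT116 and 33.4 in HCT116 spheroids, and in LOVO it was 37.1 and 36.4. Adherent HCT116 cells were the single high library, and the LOVO pair did not differ beyond counting error. The log2 fold change was -0.82 in HCT116, where 739 genes were more negative, and -0.03 in LOVO. Its paralog CNN3 was nearly level within each line, at 78.5 and 81.7 in HCT116 and 11.4 and 12.05 in LOVO. CNN2 thus accounted for 43.1% of the calponin FPKM in adherent HCT116 and 28.9% in HCT116 spheroids, and for 76.5% and 75.1% in LOVO. Smooth muscle calponin, CNN1, had 25 reads or fewer in each library.

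The tropomyosins TPM1 and TPM2, which wrap along the filament and gate the access of other proteins to it, differed from each other. TPM1 lies on the plus strand of chromosome 15 from 63042632 to 63071915, and its FPKM was 2.36 in adherent HCT116, 1.62 in HCT116 spheroids, 11.2 in adherent LOVO and 3.95 in LOVO spheroids. Adherent LOVO cells were the high library. The log2 fold change was -1.30 in LOVO, where 577 genes were more negative, and -0.36 in HCT116. On the minus strand of chromosome 9, from 35681992 to 35690121, TPM2 had an FPKM of 60.03, 44.9, 86.6 and 81.6 in the same order. Its log2 fold change was -0.41 in HCT116 and -0.09 in LOVO, and the latter turned to 0.12 to 0.13 under 3 other scalings of the libraries. In FPKM, TPM2 was 25.5 and 27.8 times as high as TPM1 in the HCT116 libraries, 7.74 times in adherent LOVO and 20.6 times in LOVO spheroids. The FPKM of TPM1 is divided by 12876 exonic bases, the union over 34 annotated transcripts, and 2761 of these bases overlap exons on the opposite strand, so its level beside that of TPM2, with 3248 bases, depends on which transcripts are made.

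The other 2 tropomyosins made up a large part of the family. TPM3 had log2 fold changes of -0.52 in HCT116 and -0.70 in LOVO, and TPM4 of -0.35 and -0.44. All 4 tropomyosin genes therefore had lower spheroid values in both lines, with TPM2 in LOVO changing sign with the scaling. The summed FPKM of the 4 genes was 150 in adherent HCT116, 110 in HCT116 spheroids, 215 in adherent LOVO and 165 in LOVO spheroids.

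MYL9 encodes a regulatory light chain of myosin II, found in smooth muscle and non-muscle cells, and lies on the plus strand of chromosome 20 from 36541484 to 36551447. Its FPKM was 18.4 in adherent HCT116, 14.6 in HCT116 spheroids, 14.0 in adherent LOVO and 9.37 in LOVO spheroids. Spheroids were lower in each line, while HCT116 spheroids and adherent LOVO cells, neighbours in this order, did not differ beyond counting error. The log2 fold change was -0.32 in HCT116 and -0.54 in LOVO. MYL9 made up only 5.11% to 6.77% of the FPKM of 3 regulatory light chain genes. Most came from MYL12B, which had log2 fold changes of -0.28 and -0.60. MYL12A differed little, by 0.05 and -0.12, and the LOVO value changed sign with the scaling.

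ACTN1 and VCL connect filaments to each other and to adhesions. ACTN1 encodes alpha-actinin 1, a crosslinker of stress fibres and focal adhesions, on the minus strand of chromosome 14 from 68874143 to 68979440. It had an FPKM of 25.7 in adherent HCT116, 19.1 in HCT116 spheroids, 22.3 in adherent LOVO and 37.1 in LOVO spheroids. LOVO spheroids were the high library here, and the direction was opposite in the 2 lines, at -0.41 in HCT116 and 0.71 in LOVO on the log2 scale. ACTN4, the other non-muscle alpha-actinin, was lower in the spheroids of both lines, by -0.64 and -0.62. The ratio of ACTN4 to ACTN1 accordingly was 6.004 in adherent HCT116 and 5.16 in HCT116 spheroids, and in LOVO it was 4.91 and 1.92. Among the 50-base stretches of ACTN1, 4.10% occur in other genes, and 300 of its exonic bases overlap an exon on the same strand.

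VCL encodes vinculin, on the plus strand of chromosome 10 from 73995193 to 74121363. Its FPKM was 31.2 in adherent HCT116, 20.4 in HCT116 spheroids, 23.0 in adherent LOVO and 22.2 in LOVO spheroids. As with CNN2, the adherent HCT116 library was high and the other 3 were close. The log2 fold change was -0.59 in HCT116 and -0.05 in LOVO, and the LOVO interval includes 0.

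**Figure D3:**
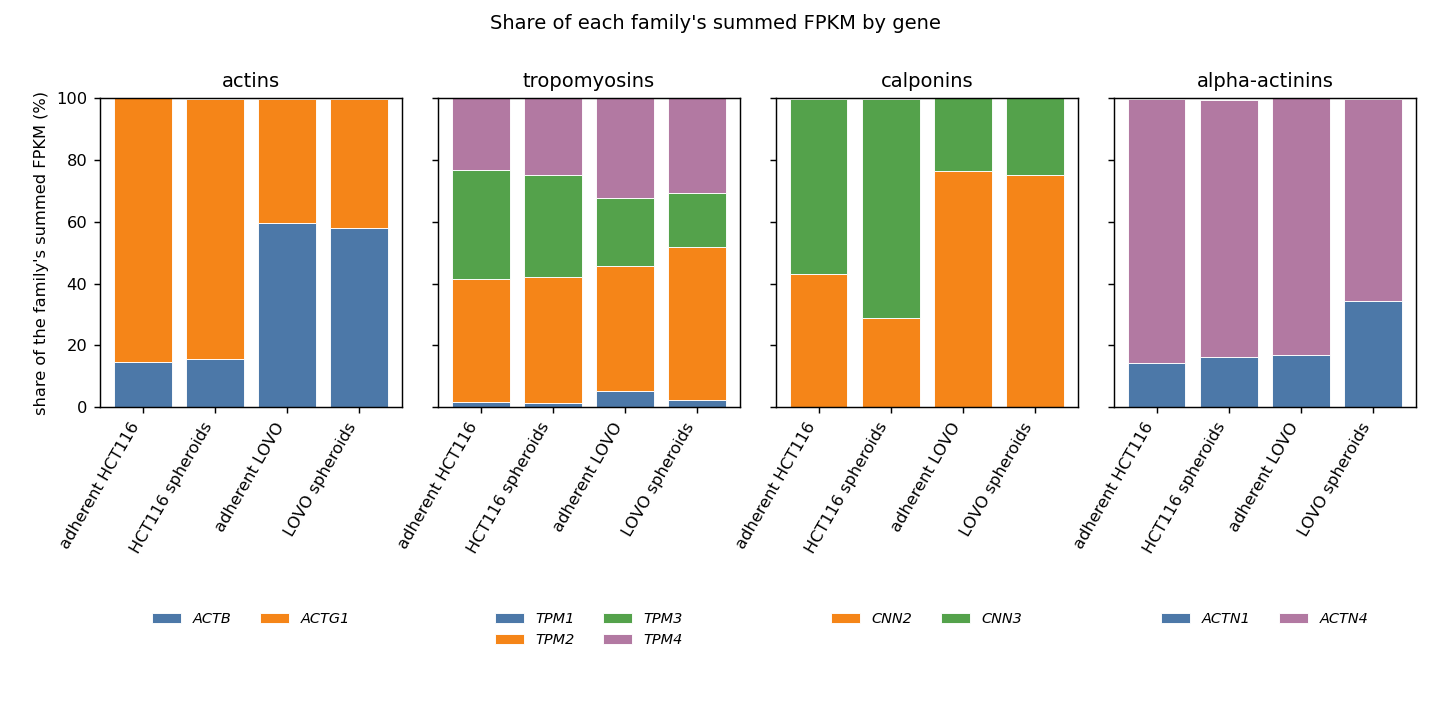
Share of each gene in the summed FPKM of its family (percent, bars stacked to 100 with shares under 0.5% left out) in the 4 libraries. ACTB and ACTG1 exchange places between the lines, ACTN1 reaches 34.2% in LOVO spheroids against 14.3% to 16.9% elsewhere, and CNN2 is the smaller part of the calponins in HCT116 and the larger part in LOVO.

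Counted together against all genes compared, the 10 genes leaned to lower values in HCT116. As they were chosen with earlier results of these data known, the shares describe the set and do not test it. There, 9 of 10 were lower in spheroids, against 53.4% of all genes, with a median log2 fold change of -0.45 against -0.03. In LOVO, 8 of 10 were lower, against 53.5%, with a median of -0.23 against -0.06. The LOVO count was 5 under 3 other scalings of the libraries, when TPM2, CNN2 and VCL turned to higher values, while the HCT116 count remained 9 under all 7. In both lines together 8 of 10 were lower, against 35.1% of all genes, and 5 were lower in both under each of the 7 scalings and pseudocounts tried: ACTB, ACTG1, TAGLN2, MYL9 and TPM1. A log2 fold change of 2, the threshold of the study's methods, was passed by 0 of the 10 genes in either line. The background was 0.506% lower and 0.201% higher in HCT116, and 0.943% lower and 1.81% higher in LOVO. At a threshold of 1, 2 of 10 were lower in HCT116, ACTB and ACTG1, against 3.33% of all genes, and 0 were higher, against 2.19%. In LOVO only TPM1 was lower by more than 1, against 7.85%, and 0 were higher, against 8.57%.

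The share of mitochondrial reads was higher in HCT116 spheroids than in adherent HCT116. With library sizes taken from nuclear genes alone, the HCT116 fold change was -1.56 for ACTB and -1.69 for ACTG1, so that both were still past 1.

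**Figure D4:**
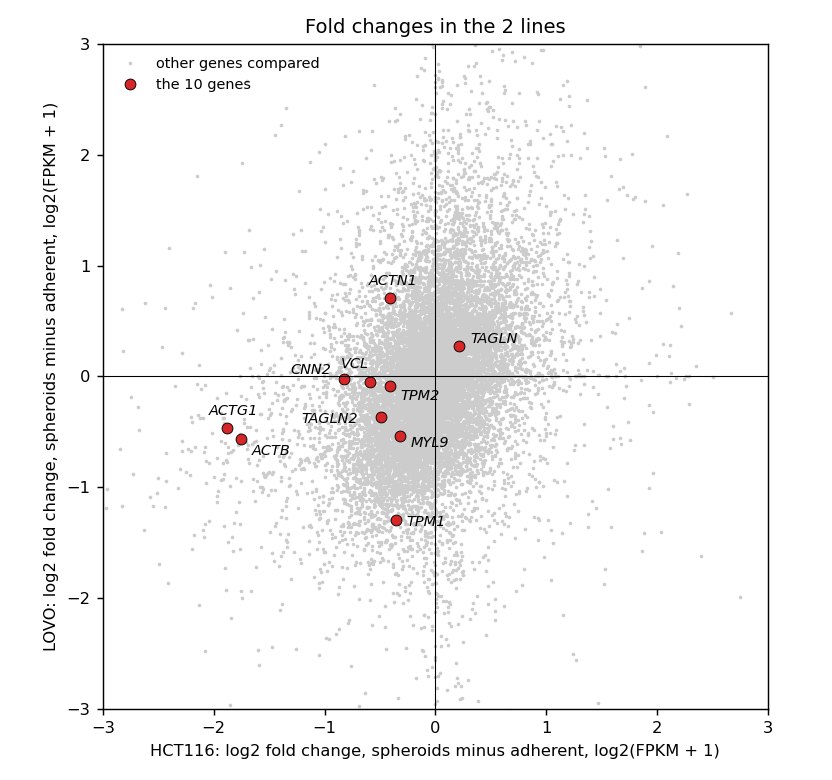
Difference of log2(FPKM + 1) values, spheroids minus adherent cells, in HCT116 (horizontal) and LOVO (vertical) for the 14429 genes compared in grey and the 10 genes in red (116 genes lie outside the axes). The actins lie at -1.88 and -1.75 in HCT116, and 8 of the 10 genes fall in the quadrant that is lower in both lines, among them TPM2, CNN2 and VCL, which leave it with other scalings.

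The 2 lines were then taken as replicates of the growth form in limma, the line entering as a covariate, which left 1 residual degree of freedom. Of the 14429 genes, 0 had a Benjamini-Hochberg adjusted limma p under 0.05 (0.0%), and 1545 had an unadjusted p under 0.05 (10.7%). Of the 10 genes, ACTB alone passed 0.05 before adjustment, with a fitted log2 change of -1.16 (SE 0.43) and a limma adjusted p of 0.462. Under 8 of the 10 alternative settings of the fit it did not pass. For ACTG1 the fitted change was -1.17 (SE 0.49, limma adjusted p = 0.465), larger than that of ACTB but with a wider gap between the lines. TPM1 had a fitted change of -0.83 (SE 0.33, limma adjusted p = 0.464). The limma adjusted p of the 10 genes ran from 0.462 to 0.871, so that no change common to both lines was detected. Without the LOVO libraries this fit cannot be made.

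The gap between the lines was set out gene by gene. Among adherent cells, LOVO minus HCT116 was -2.46 on the log2 scale for ACTG1, 1.86 for TPM1 and 1.61 for TAGLN2. Thus 1 of the 10 genes was lower by more than 1, against 16.4% of all genes, and 2 were higher, against 17.4%. Among spheroids the difference was -1.04 for ACTG1, 1.86 for ACTB and 1.72 for TAGLN2, so that again 1 was lower, against 15.0%, and 2 were higher, against 17.7%. TAGLN2 was thus higher in LOVO in both growth forms, whereas ACTB came into the set only among spheroids, where HCT116 was low. The 10 genes together took 1.24% of the reads on genes in adherent HCT116, 0.429% in HCT116 spheroids, 0.569% in adherent LOVO and 0.5001% in LOVO spheroids.

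SRF itself was lower in the spheroid libraries. Its FPKM was 23.7 in adherent HCT116, 11.4 in HCT116 spheroids, 19.5 in adherent LOVO and 15.6 in LOVO spheroids, with log2 fold changes of -0.99 and -0.31. In HCT116 that placed SRF at percentile 3.42 of all genes compared. MRTFA, an actin-sensing coactivator of SRF, differed by 0.0040 in HCT116 and by -0.58 in LOVO. MRTFB, its relative, differed by 0.27 and -0.36, in opposite directions. MYOCD, the coactivator of muscle, had at most 13 reads in a library. ELK1, ELK3 and ELK4, the ternary complex factors that share SRF with the MRTFs, differed by -0.52, 0.14 and 0.12 in HCT116 and by -0.33, 0.93 and 0.23 in LOVO. SCAI, a repressor of MRTF, differed by 0.14 and 0.01, and the LOVO interval includes 0. In all, 2 of the 7 genes of SRF and its cofactors that were compared (28.6%) were lower in both lines, against 35.1% of all genes.

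The box of ACTG1 alternates A and T, and SRF has 2 boxes just before its own start. Among the genes whose boxes are printed above, the HCT116 log2 fold change was -1.88 for ACTG1, -0.99 for SRF, -0.82 for CNN2 and -0.41 for ACTN1. In LOVO the values were -0.46, -0.31, -0.03 and 0.71 in the same order. Of all 11 listed genes compared that had a box, these 4 included, 7 were lower and 4 higher in the spheroids of each line. Higher in both were FHL1, at 0.99 and 1.38, TGFB1I1, at 0.31 and 0.33, and FBLIM1, at 0.35 and 0.04. The LOVO interval of FBLIM1 includes 0, and CNN2 in LOVO changed sign with the scaling. Among genes compared with any window, 56.1% were lower in HCT116 spheroids and 57.1% in LOVO spheroids. Over all 145 genes compared that had a box in a window, the median log2 fold change was -0.05 in HCT116 and -0.08 in LOVO, close to -0.05 and -0.11 over the 9601 genes with any window. A match is a description of the letters and not a measured site.

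The remaining genes of the actin system, taken from lists by role, leaned the same way. Of 56 further listed genes that were compared, 37 were lower in HCT116 spheroids (median log2 fold change -0.27) and 43 in LOVO spheroids (median -0.38), and 35 were lower in both. These are 66.1%, 76.8% and 62.5% of the 56, against 53.4%, 53.5% and 35.1% of all genes compared. Of the 56, 6 are paralogs of the 10 genes, with 4 lower in HCT116 (66.7%, median -0.32) and 5 in LOVO (83.3%, median -0.52). TAGLN3, ACTN2 and ACTN3, with at most 26 reads in a library, were not compared. Past a log2 fold change of 1, 0 genes were lower or higher in HCT116, against 3.33% and 2.19% of all genes. In LOVO 8 were lower and 2 higher, or 14.3% and 3.57%, against 7.85% and 8.57%. For all genes compared the medians were -0.03 and -0.06, as above. Since these are counts over 1 library per condition, from lists drawn up with earlier results known, they only describe the libraries. A gene counts as lower at any size, also where its counting interval includes 0. The list counts here and below use the deposited scaling and were not recomputed under the others.

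Among 16 other cytoskeletal genes known as SRF targets, 10 were lower in HCT116 and 11 in LOVO, with medians of -0.29 and -0.48. The shares, 62.5% and 68.8%, were not far above those over all genes, 53.4% and 53.5%. CSRP1, a LIM protein of filaments, was 1.25-fold lower in HCT116 spheroids and 3.06-fold lower in LOVO spheroids, at an FPKM of 83.3 and 27.2 in the latter line. LIMA1, which bundles filaments, was 1.60-fold and 2.25-fold lower. FHL1, a LIM-only protein of muscle and stress fibres, went the other way, at 6.45 and 13.8 in HCT116 and 3.92 and 11.8 in LOVO, or 2.14-fold and 3.01-fold higher in spheroids. PDLIM7, a PDZ and LIM protein of stress fibres, was 1.24-fold lower in HCT116 spheroids and 2.85-fold higher in LOVO spheroids, the same pair of directions as ACTN1.

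Genes that bind actin monomers or turn filaments over were lower for 12 of 15 in HCT116 (median -0.27) and for 13 of 15 in LOVO (median -0.37). These are 80% and 86.7%, against 53.4% and 53.5% of all genes compared. Profilin 1, PFN1, which feeds monomers to growing ends, was at 240 and 125 in HCT116 and at 278 and 138 in LOVO, a log2 fold change of -0.93 and -1.01. Cofilin 2, CFL2, a severing factor, differed by -0.78 and -1.27. Against this, thymosin beta 4, TMSB4X, which sequesters monomers, had an FPKM of 161 in adherent HCT116, 275 in HCT116 spheroids, 1015 in adherent LOVO and 1197 in LOVO spheroids. Its log2 fold change was 0.77 and 0.24. The ratio of TMSB4X to ACTB thus was 0.303 in adherent HCT116 and 1.75 in HCT116 spheroids, and in LOVO it was 1.2 and 2.1. CAPG, a capping protein, differed by 0.05 and 0.41.

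With the deposited scaling, the branching machinery and myosin II had lower list medians in LOVO than in HCT116, a gap that was not tested. With TPM the median over all genes compared shifted by 0.15 in LOVO and 0.01 in HCT116, so the gap may depend on the scaling. Of 8 compared genes of the Arp2/3 complex, which nucleates branched filaments, 7 were lower in HCT116 and 8 in LOVO. The medians were -0.36 and -0.47, and the shares were 87.5% and 100%, against 53.4% and 53.5% of all genes compared. ARPC5L differed by -0.64 and -0.70, ACTR3 by -0.32 and -1.06, ARPC5 by -0.01 and -0.33, and ARPC3 by 0.05 and -0.03. The HCT116 interval of ARPC5 and the LOVO interval of ARPC3 include 0, so these shares count genes level within counting error. Among 6 genes of non-muscle myosin II, 3 were lower in HCT116 (median -0.03, changing sign with the scaling) and 5 in LOVO (median -0.48). These are 50% and 83.3% of the 6, beside the same shares over all genes. MYL6, the essential light chain, was level in HCT116, at 42.2 and 44.1, and 2.25-fold lower in LOVO spheroids. MYH10, a heavy chain, differed by -0.11 in HCT116, a value that changed sign with the scaling, and by -0.86 in LOVO, and MYH14, another heavy chain, was at 19.8 and 21.0 in HCT116 and listed at 0 in both LOVO libraries.

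The patterns over the 4 libraries most like those of the 3 genes with the widest range were found among the 4832 genes outside the lists whose mean FPKM was 10 or more, by the root mean square difference of centred log2(FPKM + 1) values. For ACTB they were TUBA1B, an alpha-tubulin (0.11), CDC6, a replication licensing factor (0.12), and SPAG5, a spindle protein (0.13). For ACTG1 they were OSGIN1 (0.07), the heat shock protein gene DNAJB1 (0.24) and the metallothionein gene MT1E (0.33). For TPM1 they were HSD17B10 (0.07), the chaperonin subunit gene CCT5 (0.08) and GTF3C6 (0.10). With 4 libraries such a likeness rests on 4 points.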

How the data were processed

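The authors deposited 1 FPKM value per gene and library for 58735 human genes, made from total RNA with a SMARTER mRNA-Seq kit. The labels name the mouse builds GRCm38 and mm10, yet 58735 of 58735 gene identifiers matched human GENCODE release 29 (GRCh38), which gave the annotation. Aligner, counter and strand setting are not given in the sources used here. FPKM times gene length gave whole reads (tolerance 0.001) for 100% of the values above 0, and the library sizes the authors used were 0.998, 1.09, 0.907 and 1.05 times the reads on genes in adherent HCT116, HCT116 spheroids, adherent LOVO and LOVO spheroids. A count of 3 reads is worth 0.147 to 0.179 FPKM per kilobase.

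Fold changes were computed with Python 3.11.15 as differences of log2(FPKM + 1), which understates low genes, over the 14429 genes whose mean FPKM was 1 or more. The test was limma 3.58.1 (R 4.3.3; lmFit, eBayes with trend), with cell line as covariate and Benjamini-Hochberg adjustment over these genes. It was also run on simulated data with the same changes put into both lines. Such a run cannot show how the fit behaves where the lines differ. As the lines stand in for replicates, the limma p-values rest on the spread between 2 lines, moderated by the variance trend over all genes.

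The genes and lists were chosen with earlier results of these data known. Named were the 10 genes, SRF and its cofactors, other actins, paralogs, the 2 highest and 2 lowest genes of each list by mean fold change, any listed gene past 1 in both lines, and the 3 genes most like each of 3 members. TMSB10, TGFB1I1 and FBLIM1 were named after their values were seen. RefSeq promoters of GRCh38.p14 were searched by exact match. Alternatives were other pseudocounts (0.1, 0.01), TPM, TMM-style factors, median centring, reads on genes or on nuclear genes as library size, other filters and a threshold of 1. A further list is not reported here.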

Additional observations from a re-analysis of the deposited data

Results flagged for a closer look

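The 10 genes and the 56 further listed genes compared were searched. In each of 6 genes the counting intervals of the 2 lines lay on opposite sides of 0. The share of all genes that meet this rule was not computed. The difference between the lines was not tested, since each condition had 1 library. For ACTN1 the log2 difference between spheroids and adherent cells was -0.41 in HCT116 and 0.71 in LOVO. MRTFB had 0.27 in HCT116 and -0.36 in LOVO. PDLIM7 had -0.29 in HCT116 and 1.44 in LOVO. The remaining 3 genes were singled out after their values were seen. CALD1, which encodes the actin-binding protein caldesmon, had 0.93 in HCT116 and -1.30 in LOVO. LPP, a LIM protein of adhesion sites, had 0.51 in HCT116 and -0.72 in LOVO. GSN, which encodes the severing protein gelsolin, had 0.38 in HCT116 and -0.13 in LOVO, the latter smaller than the shift of 0.15 that TPM brought to the median of all genes. Counted by sign alone, without the intervals, 35.8% of all genes compared lay on opposite sides of 0 with the deposited scaling. So did 1 of the 10 genes. With TPM, reads on genes or reads on nuclear genes as library size, 4 of the 10 did.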

How the results depend on the processing

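No paired analysis was possible because each condition had 1 library, other than the limma fit, which sets spheroids against adherent cells within each line. The choice of library size moved the results most: against the deposited scaling, the median over all genes compared shifted in LOVO by 0.15 with TPM, 0.14 with reads on genes and 0.14 with reads on nuclear genes (the last chosen after seeing the data, as were all alternatives for genes and lists other than the 10), in HCT116 by 0.13 with nuclear genes, between adherent libraries by -0.11 and -0.15 with reads on genes and on nuclear genes, and between spheroids by 0.22 with TPM and -0.13 with nuclear genes. In LOVO the count of the 10 genes lower in spheroids was 5 under each of these 3 scalings, with medians of -0.024 (TPM), -0.014 (reads on genes) and -0.0090 (nuclear genes). The HCT116 median was -0.33 with reads on genes and -0.27 with nuclear genes. The median of LOVO minus HCT116 was -0.19 among adherent cells, against -0.30 with reads on genes, -0.27 when centred and -0.35 with nuclear genes, and 0.48 among spheroids, against 0.72 with TPM and 0.33 with nuclear genes. At a threshold of 1, 2 genes were past it in HCT116 and 1 in LOVO, lower in spheroids.

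Under TPM, reads on genes and nuclear genes in turn, the LOVO fold change was 0.12, 0.13 and 0.13 for TPM2 and 0.082, 0.091 and 0.096 for MYL12A. In HCT116, reads on genes and nuclear genes gave 0.0012 and 0.066 for MYH10, 0.014 and 0.053 for ACTA2 as the only other actin compared, and 0.087 and 0.15 for the median of non-muscle myosin II (0.0029 when centred). CNN2 and VCL, whose LOVO intervals include 0, changed sign there in 5 and 4 of 7 settings. For the other members no setting changed a sign. The limma fit called 0 genes under each of 10 alternatives, with 163 to 1906 genes at an unadjusted p under 0.05. The cause of these shifts was not tested. With no replicates, depth limits only the counting error, which is widest for TAGLN (135 to 199 reads).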
